A study of Mus musculus with 6 samples.

Results

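Transcripts of 10 genes that write, maintain or remove DNA methylation, or that belong to Polycomb repressive complex 2 (PRC2), were followed in 6 RNA-seq libraries of spleen CD3+ T cells. The genes were chosen by name and matched by Ensembl identifier: Dnmt1, Dnmt3a, Dnmt3b, Uhrf1, Tet1, Tet2, Tet3, Ezh1, Ezh2 and Suz12, which are 10 of the 55416 genes in the count tables, and all 10 passed the filter on low counts, Tet1 through its isograft libraries alone. There were 3 libraries from C57BL/6 recipients of an allograft, a graft from a genetically different donor, and 3 from C57BL/6 recipients of an isograft, a graft from a genetically identical donor. All 6 are labelled wild type, and the cells were kept in medium with serum before RNA extraction. The sources used here do not give the grafted organ, the donor strain, the age of the recipients, how long after grafting the spleens were taken, or how long the cells were in medium. Whether each library had its own mouse is not stated either, so the p-values cover library-to-library spread that could be partly technical.

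DNA methylation in mammals sits mostly on the cytosine of CG dinucleotides. DNMT3A and DNMT3B place it on unmethylated DNA, while DNMT1, guided by UHRF1 to newly copied DNA, restores it after replication. The TET enzymes oxidise the methyl group, which opens a route back to unmodified cytosine. PRC2 methylates lysine 27 of histone H3, a mark of silenced genes: EZH1 or EZH2 carries the catalytic SET domain, SUZ12 and EED hold the complex together, and EZH2 is known as the form of dividing cells, EZH1 as the form of resting ones. In T cells these enzymes are known for restricting which effector genes a cell can switch on.

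The stretches before the start sites of Ezh2, Ezh1, Suz12 and Tet2 are shown because Ezh2 and Ezh1 are alternative subunits of one complex that moved in opposite directions, Suz12 is their common partner, and Tet2 had the most CG dinucleotides of the 10 genes. They come from RefSeq (GRCm38.p6), are written 5′ to 3′ on the gene's strand, and have every CG in capitals. Where the GENCODE annotation of that build places an exon in the window, the longest stretch outside exons is shown.
Ezh2, chr6:47595059-47595183, minus strand: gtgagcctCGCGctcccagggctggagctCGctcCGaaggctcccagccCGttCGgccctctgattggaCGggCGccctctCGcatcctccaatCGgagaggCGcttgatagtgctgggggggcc
Ezh1, chr11:101226464-101226713, minus strand: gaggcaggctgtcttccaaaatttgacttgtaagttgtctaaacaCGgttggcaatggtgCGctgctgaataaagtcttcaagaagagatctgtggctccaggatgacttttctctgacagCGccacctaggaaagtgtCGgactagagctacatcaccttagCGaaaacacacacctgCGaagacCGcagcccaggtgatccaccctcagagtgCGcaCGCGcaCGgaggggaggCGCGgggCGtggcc
Suz12, chr11:79992856-79993105, plus strand: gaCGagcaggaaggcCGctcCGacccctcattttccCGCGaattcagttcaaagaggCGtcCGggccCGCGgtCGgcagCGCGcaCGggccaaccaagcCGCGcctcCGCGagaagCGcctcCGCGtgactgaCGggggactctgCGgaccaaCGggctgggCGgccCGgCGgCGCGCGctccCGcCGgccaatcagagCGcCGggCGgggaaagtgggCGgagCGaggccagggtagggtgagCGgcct
Tet2, chr3:133544391-133544640, minus strand: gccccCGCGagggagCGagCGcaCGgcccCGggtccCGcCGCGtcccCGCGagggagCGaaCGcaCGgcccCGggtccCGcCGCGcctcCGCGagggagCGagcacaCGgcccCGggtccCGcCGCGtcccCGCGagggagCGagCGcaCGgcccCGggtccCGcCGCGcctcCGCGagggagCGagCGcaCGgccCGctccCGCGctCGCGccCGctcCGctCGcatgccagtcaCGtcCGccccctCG
In the full 250 bases before the start, Tet2 had 51 CG, more than 99.9% of the 32851 windows of that length in the table. Suz12 had 37, Ezh2 had 23 and Ezh1 had 14, and the median over all windows was 6. The 8-letter motif TTTNNCGC, a form of the site bound by E2F factors of the cell cycle, was searched on both strands and was present in 4.28% of all windows. Among the 15 windows of the 10 genes it was present in 4, which belong to Dnmt1, Uhrf1 (2 windows) and Suz12. The motif itself holds a CG, and most of these windows had more CG than the median window. The share over all windows is therefore not a like baseline, and no enrichment was tested. It started at base 32 of the Suz12 stretch, and the windows of Ezh2, Ezh1 and the 3 Tet genes held no match. A match is a run of letters, not a shown binding site. The 3 genes with a match did not move together: Dnmt1 fell, Suz12 rose and Uhrf1 did not pass the test.

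Of the 10 genes, 5 rose in allograft libraries (Dnmt3a, Dnmt3b, Tet2, Ezh2 and Suz12), 4 fell (Dnmt1, Tet1, Tet3 and Ezh1) and 1, Uhrf1, did not pass. The DNMT, TET and EZH families each held genes that moved in opposite directions. The test was edgeR's quasi-likelihood test over 14926 genes, called at 0.05 after Benjamini-Hochberg adjustment. It called 57.8% of all genes tested, 28.7% as higher and 29.1% as lower, and the 3 allograft libraries did not overlap the 3 isograft libraries for 63.3% of all genes and for 9 of the 10. The median log2 fold change, always allograft minus isograft, was 0.40 over the 10 genes and -0.01 over all genes tested. At least 2-fold changes were called for 20.1% of all genes and for 1 of the 10, Tet1, which could enter the test only by being high in isograft libraries, so its count among the falls is a description. Library totals were 30078504 to 34123777 counts in allograft libraries and 30066137 to 37821738 in isograft libraries, and no batch is given in the labels.

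**Figure D1:**
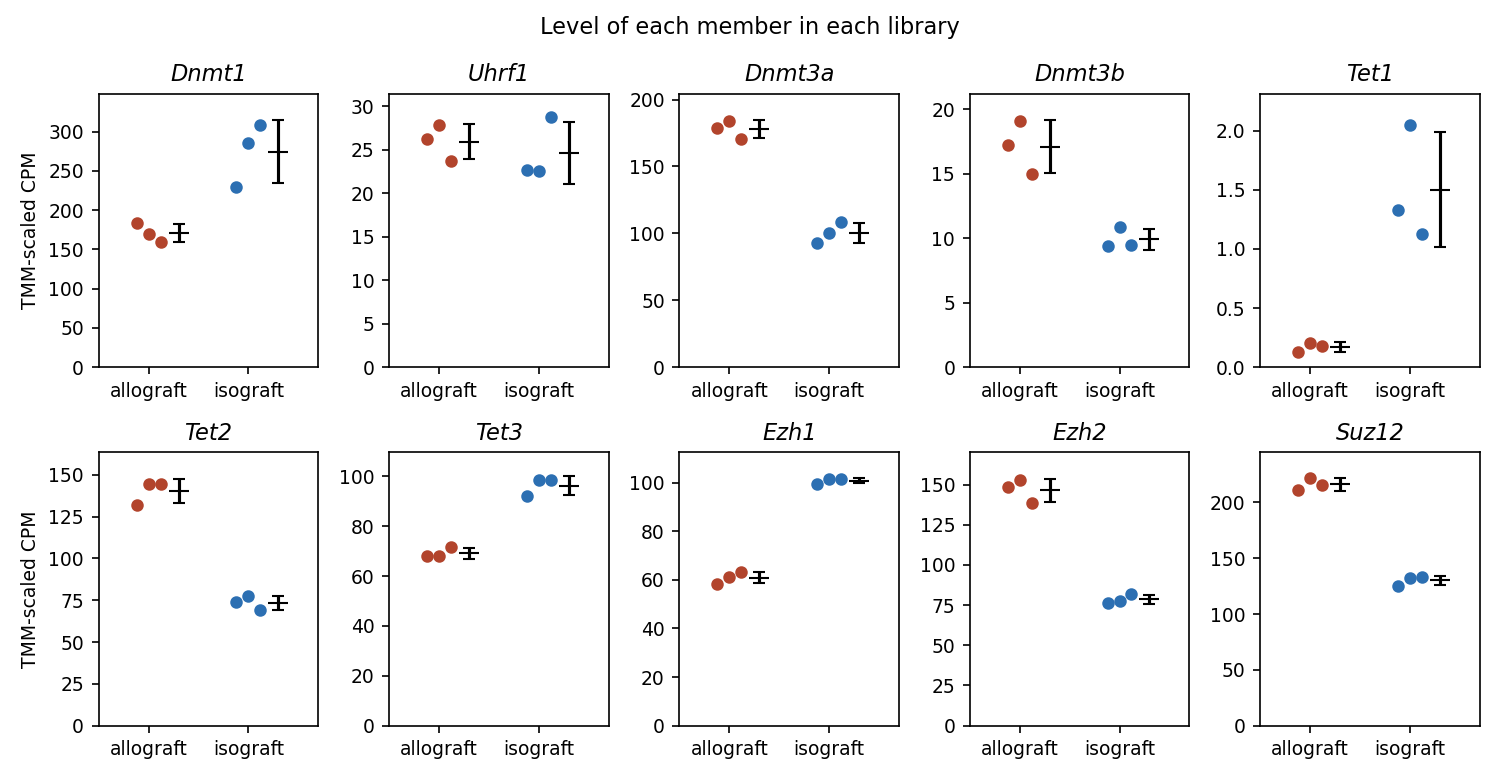
Level of each gene in each library, as TMM-scaled CPM, on linear axes that start at 0. Points are libraries, and the bar beside them is the mean with its SD (n = 3). The groups are apart in every panel but Uhrf1, where allograft libraries sit at 23.7 to 27.8 CPM and isograft libraries at 22.5 to 28.7 CPM.

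The 2 de novo methyltransferase genes rose. Dnmt3a (chromosome 12, 3856007 to 3964443, GRCm39, plus strand) stood at 179, 184 and 171 CPM in allograft libraries 1, 2 and 3, against 92.8, 100.2 and 108 CPM in isograft libraries 1, 2 and 3, where CPM is the count of read pairs scaled to a common library size with TMM factors. The lowest allograft library was well above the highest isograft library. Its log2 fold change was 0.83 ± 0.07 (SE, adjusted p = 1.08e-08 by edgeR), or 1.77-fold. Dnmt3b (chromosome 2, 153491370 to 153529650) had 17.2, 19.11 and 15.0 CPM in allograft libraries, against 9.37, 10.9 and 9.48 CPM in isograft libraries. Its groups did not overlap either, and its log2 fold change was 0.79 ± 0.12 (SE, adjusted p = 1.49e-05 by edgeR). DNMT3B is best known from the early embryo, where it is abundant, and in mature T cells DNMT3A is the main de novo enzyme.

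The maintenance methyltransferase gene fell. Dnmt1 (chromosome 9, 20818505 to 20871184, minus strand) had 183, 169 and 159.9 CPM in allograft libraries, against 230.1, 285 and 309 CPM in isograft libraries. The isograft libraries were more scattered (274.6 ± 40.3 CPM, SD, n = 3) than the allograft ones (171 ± 11.7 CPM), but the 2 sets did not overlap. The log2 fold change was -0.69 ± 0.09 (SE, adjusted p = 7.27e-06 by edgeR), which puts the allograft level at 0.622 times the isograft level. Uhrf1 (chromosome 17, 56610321 to 56630486), whose product brings DNMT1 to hemimethylated DNA, did not follow it. Uhrf1 had 26.3, 27.8 and 23.7 CPM in allograft libraries, against 22.6, 22.5 and 28.7 CPM in isograft libraries. The groups overlapped, and the log2 fold change was 0.08 with a 95% interval of -0.15 to 0.30 (adjusted p = 0.573 by edgeR), so a change inside that interval, up or down, is not told apart from 0. With total counts in place of TMM it was -0.14 (adjusted p = 0.251). That scaling moved the median of all genes by -0.22, and the other 9 genes kept their direction and their call under it, while over all genes it gave 2973 rises and 6093 falls in place of 4283 and 4349.

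The TET genes diverged. Tet2 (chromosome 3, 133169440 to 133250900), the family member most studied in T cells, had 132, 144 and 145 CPM in allograft libraries, against 73.7, 77.4 and 68.9 CPM in isograft libraries. All 3 allograft libraries were above all isograft libraries, with a log2 fold change of 0.94 ± 0.07 (SE, adjusted p = 1.72e-09 by edgeR), the largest rise of the 10. Tet3 (chromosome 6, 83339355 to 83436066) had 67.8, 67.8 and 71.7 CPM in allograft libraries, against 91.9, 98.4 and 98.3 CPM in isograft libraries. It fell by 0.48 on the log2 scale, with an SE of 0.07 (adjusted p = 1.06e-05 by edgeR). Tet1 (chromosome 10, 62640349 to 62744775), which is abundant in embryonic stem cells, was close to undetected in allograft libraries: the raw counts were 4, 6 and 5 in allograft libraries, against 44, 83 and 36 in isograft libraries. Its log2 fold change of -3.12 ± 0.47 (SE, adjusted p = 1.05e-05 by edgeR) rests on 0.128 to 0.207 CPM in allograft libraries and 1.12 to 2.05 CPM in isograft libraries. Because the allograft libraries alone would not have passed the filter on low counts, a gene of this kind had to differ to be tested at all.

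The PRC2 genes split along the catalytic pair. Ezh2 (chromosome 6, 47507073 to 47572275) had 148, 153 and 138 CPM in allograft libraries, against 76.6, 77.5 and 81.6 CPM in isograft libraries. Ezh1 (chromosome 11, 101081941 to 101117289) had 58.4, 61.2 and 63.0 CPM in allograft libraries, against 99.5, 101.6 and 101.5 CPM in isograft libraries. Neither gene's groups overlapped, and the directions were opposite: the log2 fold change was 0.90 ± 0.07 for Ezh2 (SE, adjusted p = 1.8e-09 by edgeR) and -0.73 ± 0.07 for Ezh1 (SE, adjusted p = 3.48e-08 by edgeR). Suz12 (chromosome 11, 79883932 to 79924949), the scaffold subunit shared by both forms of the complex, had 211, 222 and 216 CPM in allograft libraries, against 125, 132 and 133 CPM in isograft libraries. It rose with Ezh2, by 0.73 ± 0.07 (SE, adjusted p = 1.62e-08 by edgeR).

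**Figure D2:**
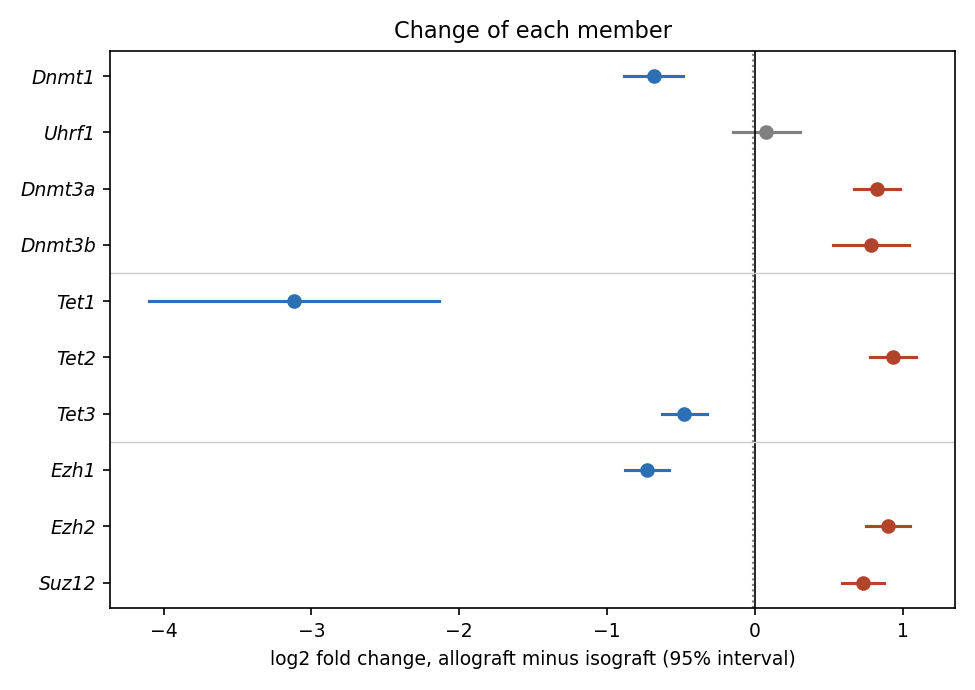
Log2 fold change of each gene, allograft minus isograft, from edgeR's quasi-likelihood fit, with its 95% interval; red rose, blue fell and grey did not pass, the dotted line is the median of all genes tested (-0.01), and the order down the page is DNMTs with Uhrf1, TETs, then PRC2. Only the interval of Uhrf1 includes 0, and the interval of Tet1, -4.10 to -2.14, is the widest.

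Levels of different genes were compared only as RPKM, the TMM-scaled CPM divided by the exon length in kilobases. The exon length is the union over all annotated isoforms, so genes with long, rarely used exons read low. In allograft libraries the order by mean RPKM was Suz12 (43.7 ± 1.15, SD, n = 3), Dnmt1 (23.1 ± 1.59), Ezh2 (21.9 ± 1.09), Dnmt3a (10.7 ± 0.412), Tet2 (8.32 ± 0.424), Ezh1 (8.18 ± 0.314), Uhrf1 (6.09 ± 0.48), Tet3 (4.14 ± 0.135), Dnmt3b (3.35 ± 0.402) and Tet1 (0.0111 ± 0.00258). Dnmt1 and Ezh2 overlapped in that order, as did Tet2 and Ezh1, and the other neighbours did not. In isograft libraries the order was Dnmt1 (37.2 ± 5.47), Suz12 (26.3 ± 0.828), Ezh1 (13.6 ± 0.163), Ezh2 (11.8 ± 0.402), Dnmt3a (6.03 ± 0.462), Uhrf1 (5.78 ± 0.836), Tet3 (5.76 ± 0.222), Tet2 (4.35 ± 0.253), Dnmt3b (1.94 ± 0.164) and Tet1 (0.0970 ± 0.0314). There Dnmt3a, Uhrf1 and Tet3 overlapped with their neighbours and the rest did not. Dnmt1 was thus the highest of the 10 in isograft libraries and Suz12 in allograft libraries, and Ezh2 stood above Ezh1 in allograft libraries but below it in isograft libraries.

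Ratios between 2 genes of the same library do not depend on how libraries are scaled, and 7 were compared by a 2-sided exact permutation test over the 3 and 3 libraries, which cannot go below p = 0.1. The RPKM ratio of Ezh2 to Ezh1 was 2.83, 2.78 and 2.45 in allograft libraries, against 0.857, 0.849 and 0.896 in isograft libraries. Ezh2 was the more abundant of the pair in every allograft library and Ezh1 in every isograft library, and the ratio was 3.09-fold higher in allograft libraries (exact p = 0.1, 0.117 adjusted over the 7 ratios). Ezh1 and Ezh2 together came to 30.1 ± 0.944 RPKM in allograft libraries and 25.3 ± 0.516 RPKM in isograft libraries (SD, n = 3 each). Ezh2 made up 72.8% of that sum in allograft libraries and 46.4% in isograft libraries.

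The TET pair crossed in the same manner. The RPKM ratio of Tet2 to Tet3 was 1.93, 2.11 and 1.99 in allograft libraries, against 0.794, 0.778 and 0.693 in isograft libraries, and was 2.67-fold higher in allograft libraries (exact p = 0.1, 0.117 adjusted). Tet2 made up 66.7% ± 0.981 of the summed RPKM of Tet1, Tet2 and Tet3 in allograft libraries and 42.6% ± 1.71 in isograft libraries (SD, n = 3 each). The sum itself was 12.5 ± 0.509 RPKM in allograft libraries and 10.2 ± 0.352 RPKM in isograft libraries. The ratio of Tet1 to Tet2 was lower in every allograft library than in any isograft library (log2 difference -4.05, exact p = 0.1). That ratio is a description only, since Tet1 passed the filter on low counts through its isograft libraries alone.

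Among the methyltransferases, the proportion of maintenance to de novo transcripts was lower in all 3 allograft libraries. The RPKM ratio of Dnmt1 to Dnmt3a was 2.31, 2.07 and 2.11 in allograft libraries, against 5.59, 6.42 and 6.44 in isograft libraries (log2 difference -1.51, exact p = 0.1, 0.117 adjusted). Dnmt1 made up 62.2% ± 1.501 of the summed RPKM of the 3 DNMT genes in allograft libraries and 82.2% ± 1.31 in isograft libraries (SD, n = 3 each). The sum was 37.2 ± 2.10 RPKM in allograft libraries and 45.2 ± 5.96 RPKM in isograft libraries, with overlapping libraries (log2 difference -0.27, exact p = 0.2). The proportion of Dnmt3a to Dnmt3b did not differ beyond the spread of the libraries: their RPKM ratio was 3.21 ± 0.266 in allograft libraries and 3.12 ± 0.346 in isograft libraries (SD, n = 3 each), a log2 difference of 0.04 (exact p = 0.8). The ratio of Uhrf1 to Dnmt1 was 0.248, 0.285 and 0.257 in allograft libraries, against 0.171, 0.137 and 0.161 in isograft libraries (exact p = 0.1). Suz12 to Ezh2 moved least of the ratios whose groups did not overlap, at 1.996 ± 0.0958 in allograft libraries and 2.24 ± 0.0566 in isograft libraries (exact p = 0.1).

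**Figure D3:**
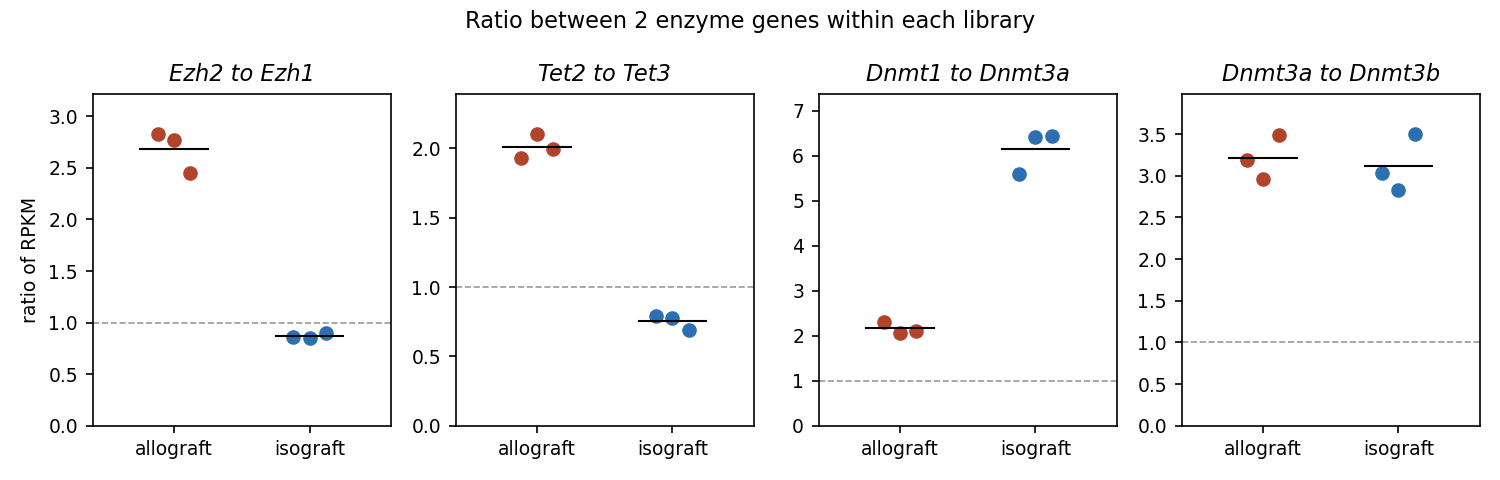
RPKM ratio of 2 genes within each library, on linear axes that start at 0, with the group mean as a line and equality as the dashed line. Ezh2 to Ezh1 and Tet2 to Tet3 lie above 1 in the 3 allograft libraries and below 1 in the 3 isograft libraries, Dnmt1 to Dnmt3a is lower in allograft libraries, and Dnmt3a to Dnmt3b overlaps.

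Partners of the methyltransferases moved both ways, with 4 rises and 4 falls among 11 tested (2 rises and 5 falls with total counts), a median log2 fold change of 0.13. The share to hold beside this and each later list is that of all genes tested, of which 28.7% rose and 29.1% fell. Cdca7, whose product recruits the remodeller HELLS, had 90.6 ± 11.9 CPM in allograft libraries and 21.4 ± 1.602 CPM in isograft libraries (SD, n = 3 each), a log2 fold change of 2.08 (adjusted p = 1.37e-12 by edgeR). Hells itself, which opens chromatin for DNA methylation, rose by 0.48. Setdb1, a histone H3 lysine 9 methyltransferase, rose by 0.25, a call lost with total counts (0.03, adjusted p = 0.78). Ehmt2, which encodes the lysine 9 methyltransferase G9a, fell by 0.92. Lig1, the ligase that joins newly copied strands, fell by 0.53, and Ctcf, an insulator factor whose binding is sensitive to methylation, fell by 0.41.

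Readers of methylated DNA mostly fell, with 1 rise and 4 falls among 7 tested and a median of -0.26. Mbd2, which binds methylated CG and recruits the NuRD corepressor, had 147 ± 4.002 CPM in allograft libraries and 243 ± 7.92 CPM in isograft libraries, a log2 fold change of -0.72 (adjusted p = 1.83e-08 by edgeR). The methyl-binding zinc finger genes Zbtb4 and Zbtb38 fell by 1.04 and 0.91 on the log2 scale. Mbd3, a NuRD subunit that in mammals binds methylated DNA weakly, was the riser, at 0.49 (adjusted p = 0.00129 by edgeR).

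Genes around the TET step were also divided, with 5 rises and 6 falls among 12 tested and a median of -0.07. Of the Gadd45 genes, stress-induced genes linked to active demethylation, Gadd45b had 251 ± 19.9 CPM in allograft libraries and 56.3 ± 1.97 CPM in isograft libraries, and Gadd45g had 43.4 ± 0.792 CPM in allograft libraries and 7.96 ± 0.536 CPM in isograft libraries. Their log2 fold changes were 2.16 and 2.45. Gadd45a, of the same family and named after its values were seen, went the other way, at -0.53 (adjusted p = 0.00194 by edgeR). Apex1, the endonuclease of base excision repair, rose by 1.89. Tdg, the glycosylase that cuts out the cytosines oxidised by TET enzymes and named here after its values were seen, had 78.6 ± 2.30 CPM in allograft libraries and 40.7 ± 1.75 CPM in isograft libraries, a log2 fold change of 0.95 (adjusted p = 1.57e-09 by edgeR). Other base excision genes of the list did not rise: Mbd4 fell by 1.03, Xrcc1 fell by 0.30 and Smug1 (0.16) did not pass. Mbd4, Xrcc1 and Smug1 were also named after their values were seen. Idh2 and Idh1, whose enzymes make the 2-oxoglutarate that TET and histone demethylases consume, fell by 1.88 and 1.46 on the log2 scale, and Cxxc5, which encodes a protein that binds unmethylated CG, fell by 1.36.

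PRC2 partners rose more often than they fell, with 7 rises and 1 fall among 11 tested (5 and 2 with total counts) and a median of 0.31. Calls in either direction covered 72.7% of them and 57.8% of all genes tested. Eed, the third core subunit, named here after its values were seen, had 199 ± 6.92 CPM in allograft libraries and 137 ± 1.33 CPM in isograft libraries, a log2 fold change of 0.54 (adjusted p = 1.05e-06 by edgeR). Rbbp7, a histone-binding subunit that other complexes also use, rose by 1.06. Aebp2 and Jarid2, which define one accessory form of PRC2, rose by 0.76 and 0.72. The other accessory form did not move as one. Its Polycomb-like gene Phf1 fell by 0.93, while Mtf2 (0.03) and Phf19 (0.05) did not pass. Epop, also of that form, rose by 1.71, the largest change in the list (adjusted p = 8.34e-07 by edgeR). Mtf2, Phf19 and Epop were named after their values were seen. Ezh2, Suz12 and Eed, the core of the EZH2 form, thus all rose while Ezh1 fell.

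PRC1, the complex that ubiquitylates histone H2A and in its canonical form reads the PRC2 mark, had 9 rises and 8 falls among 24 tested (6 and 10 with total counts), with a median of 0.09. The CBX genes encode the chromodomain readers, and 4 of 5 fell while 1 rose, a grouping made after the values were seen. Cbx7 had 96.3 ± 2.83 CPM in allograft libraries and 198 ± 5.93 CPM in isograft libraries, a log2 fold change of -1.04 (adjusted p = 1.31e-10 by edgeR). Cbx6 and Cbx2 fell by 1.54 and 2.32 on the log2 scale. Of the PCGF subunits, which define the variants of PRC1, 3 of 6 rose and 2 fell, and the risers were Pcgf6 (1.20), Pcgf5 (0.80) and Bmi1 (0.70).

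Enzymes that remove the Polycomb marks included the largest rise among the DNA methylation and Polycomb lists. Kdm6b, the histone H3 lysine 27 demethylase JMJD3, had 517 ± 48.0 CPM in allograft libraries and 90.2 ± 1.59 CPM in isograft libraries (SD, n = 3 each), a log2 fold change of 2.52 ± 0.08 (SE, adjusted p = 4.12e-15 by edgeR) or 5.74-fold. Kdm6a, the other demethylase of that mark, fell by 0.29 (adjusted p = 0.00884 by edgeR). In the list 4 of 7 tested rose and 1 fell (3 and 3 with total counts), among them Foxk2, a factor that binds the H2A deubiquitinase BAP1 (0.63), and Asxl1, the partner of BAP1 (0.46).

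**Figure D4:**
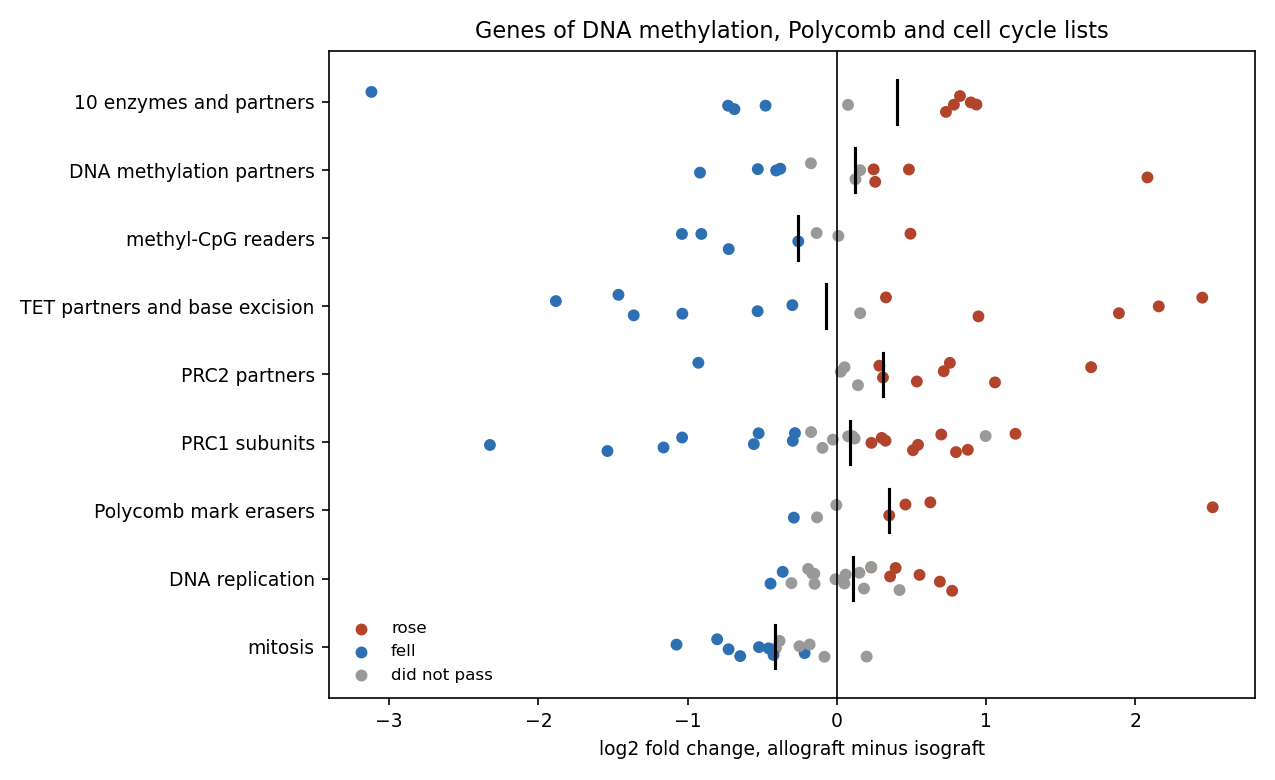
Log2 fold change, allograft minus isograft, of every tested gene in 9 lists, with the list's median as a black line; red rose, blue fell and grey did not pass edgeR's quasi-likelihood test. The top row holds the 10 genes, with 5 rises near 0.73 to 0.94 and 4 falls, PRC2 partners lie mostly to the right, and mitosis genes hold 8 falls and 0 rises.

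Genes that these enzymes are known to keep silent were looked at in 3 lists. Developmental regulators such as Hox genes, classic PRC2 targets, stayed near 0: over 14 genes the summed counts were 15, 9 and 21 in allograft libraries, against 10, 8 and 16 in isograft libraries, 4 genes had no count in any library, and none passed the filter. Germline genes silenced by promoter methylation in somatic cells were also nearly silent, with 5 of 8 at 0 in every library, where a count of 0 allows up to 0.074 to 0.107 CPM (3 counts, for counting error only). Only Ddx4 was tested, at 1.30 ± 0.456 CPM in allograft libraries and 0.870 ± 0.138 CPM in isograft libraries (adjusted p = 0.189 by edgeR). Of 8 effector genes reported in mouse T cells as targets of EZH2 or of DNA methylation, 6 were tested: 5 rose and 1 fell. Il4 and Il13, named after their values were seen, did not pass the filter on low counts. Il4 had 8, 10 and 5 counts in allograft libraries, against 8, 9 and 16 in isograft libraries. Il13 had 18, 1 and 4 counts in allograft libraries, against 0, 2 and 0 in isograft libraries. The risers were Ifng (4.69), the T-bet gene Tbx21 (3.53), Il10 (1.92), Eomes (1.48) and Foxp3 (0.76). Ifng had 6, 8 and 14 counts in isograft libraries and passed the filter on low counts through its allograft libraries alone. Its count among the rises is therefore a description. Gata3, the regulator of type 2 helper cells, had a log2 fold change of -0.78 (adjusted p = 0.0447 by edgeR), a call that did not hold when allograft replicate 2 (adjusted p = 0.0717), allograft replicate 3 (0.109), isograft replicate 1 (0.0843), isograft replicate 2 (0.0516) or isograft replicate 3 (0.136) was left out. The list was chosen with results of these libraries known, so its count is not independent evidence.

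Dnmt1, Uhrf1 and Ezh2 are transcribed most in dividing cells, so cell cycle genes are given beside them. Of 20 DNA replication genes 6 rose and 2 fell (2 and 8 with total counts), with a median of 0.11. Calls in either direction covered 40% of this list and 57.1% of the mitosis list, beside 57.8% of all genes tested. Pcna, the sliding clamp to which DNMT1 binds, rose by 0.77, Mcm5 by 0.55 and Mcm3 by 0.23, while Mcm7 and Rrm2 fell by 0.44 and 0.36. The rise of Mcm3 was lost with total counts (0.01) and without isograft replicate 1 (adjusted p = 0.0522), and the fall of Rrm2 without allograft replicate 3 (0.071), isograft replicate 2 (0.0772) or isograft replicate 3 (0.131). The count of falls was 4 without allograft replicate 1 and 1 when any of those 3 libraries was left out. Of 14 mitosis genes 0 rose and 8 fell by edgeR's test (12 fell with total counts), with a median of -0.42, among them Ccnb2 (-1.07), Birc5 (-0.65) and Bub1b (-0.52). The summed level of the mitosis list was 476 to 548 CPM in allograft libraries and 577 to 590.3 CPM in isograft libraries, and that of the replication list was 1036 to 1049 CPM in allograft libraries and 935 to 974 CPM in isograft libraries. Of the replication sum, Pcna made up 164 ± 2.58 CPM in allograft libraries and 96.0 ± 6.69 CPM in isograft libraries. Mcm5 made up 126 ± 7.53 CPM in allograft libraries and 85.9 ± 7.70 CPM in isograft libraries. As 12 of the 20 replication genes did not pass and 2 fell, that sum does not stand for all its genes. The part of cell division in the changes of the 10 genes was not tested.

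The libraries held more than T cell transcripts. All 10 T cell markers were detected in every library, with 3 rises (Trac, Cd5 and Zap70) and 5 falls (Cd3e, Cd3d, Cd3g, Cd247 and Trbc2). They summed to 1314 to 1442 CPM in allograft libraries and 1629 to 1713 CPM in isograft libraries. Of that sum, Cd247 made up 149 ± 4.02 CPM in allograft libraries and 379 ± 22.2 CPM in isograft libraries. The T cell sum therefore does not stand for all its genes. All 10 B cell markers were detected in every library as well and summed to 1769 to 1896 CPM in allograft libraries and 1460 to 1569 CPM in isograft libraries, with 4 rises and 3 falls (2 and 5 with total counts), and Fcer2a, the low-affinity IgE receptor CD23, had 378 ± 22.6 CPM in allograft libraries and 52.8 ± 0.951 CPM in isograft libraries. Germinal centre B cells are known for high Ezh2, and their 6 markers were all detected at a summed level of 7.97 to 8.89 CPM in allograft libraries and 13.9 to 16.0 CPM in isograft libraries, with 0 rises and 2 falls by edgeR's test. The number of falls was 1 without allograft replicate 1, allograft replicate 2, isograft replicate 2 or isograft replicate 3. Myeloid markers (8 genes) summed to 455 to 492 CPM in allograft libraries and 317 to 330 CPM in isograft libraries, plasma cell markers (6 genes) to 767 to 867 CPM in allograft libraries and 220.1 to 230.4 CPM in isograft libraries, NK cell markers (5 genes) to 16.4 to 19.9 CPM in allograft libraries and 19.3 to 19.6 CPM in isograft libraries, and erythroid markers to 3.90 to 6.31 CPM in allograft libraries and 6.26 to 7.23 CPM in isograft libraries. Most of the myeloid sum was 1 gene, Cybb, at 391 ± 24.4 CPM in allograft libraries and 224 ± 6.62 CPM in isograft libraries. That list had 3 rises (Cybb, Cd68 and Fcgr3) and 3 falls (Lyz2, Csf1r and Adgre1), so its sum does not stand for all its genes. Of the plasma cell sum, Irf4, which activated T cells also express, made up 704 ± 48.1 CPM in allograft libraries and 117 ± 3.19 CPM in isograft libraries. Fcer2a, Irf4 and these T cell and myeloid genes were named after their values were seen. All of the 10 genes are also transcribed in other blood cells, so in these bulk libraries fewer cells of a type and less RNA per cell cannot be told apart, and the part of cell composition in the changes was not tested.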

How the data were processed

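RNA-seq was compared between 3 allograft and 3 isograft libraries. Per the file headers, the authors counted read pairs over exons per Ensembl gene with featureCounts 1.6.0 (release 104, GRCm39) after a HISAT alignment (no version stated). The deposited values are raw counts, without normalization. GRCm38 and mm10 are the builds in the submitters' processing notes, so coordinates are printed as the files give them (GRCm39), and promoter sequences with their own build. The recorded command sets no strand or multi-mapping option: antisense reads are not told apart and, by that tool's defaults, multi-mapped fragments are left out. Dnmt3a shares 133 of 16642 exon bases, and Tet2 43 of 16870, with an antisense gene. The headers also give exon length, another deposited value. Symbols matched 52083 of 55416 genes; Ezhip was not matched.

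Genes were filtered with filterByExpr, scaled by TMM and tested with edgeR 4.0.16 (robust quasi-likelihood, Benjamini-Hochberg, threshold 0.05) in R 4.3.3; the SE is the log2 fold change over the root of F. DESeq2 1.42.0 and limma 3.58.1 were alternatives. Totals were 30066137 to 37821738 counts. On simulated counts for the comparison (14669 genes), edgeR called 70.1% of genes changed 1.5-fold, 85.1% of those changed 2-fold and 0.0968% of unchanged ones. Within groups, library pairs differed by more than sampling noise. The members and lists were chosen with earlier results of these data known. Named genes are all 10 members and, from each pathway, target and cycle list, all tested genes where 6 or fewer, otherwise up to 3 rises and 3 falls with the smallest p. Genes outside that rule are marked as named after their values were seen.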

Additional observations from a re-analysis of the deposited data

How the results depend on the processing

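The calls of the 10 genes were recomputed with RLE scaling, total counts, DESeq2, limma-voom, every gene kept, only genes reaching 5 CPM in 3 libraries kept, a replicate block, and each of the 6 libraries left out. The 5 rises kept direction and call in all 13 alternatives, as did the falls of Dnmt1, Tet3 and Ezh1. Tet1 is below 5 CPM and was not tested under that filter. Its fall was called in the other 12, which is no further support, since its allograft libraries alone would not pass the usual filter. The log2 fold change ran from 0.61 to 0.88 for Dnmt3a, 0.72 to 0.97 for Tet2, 0.68 to 0.93 for Ezh2, -0.95 to -0.71 for Ezh1 and -0.91 to -0.596 for Dnmt1. Uhrf1 changed sign with total counts (-0.14). The log2 difference of the ratio of Dnmt3a to Dnmt3b, 0.04, ran from -0.025 to 0.13 without 1 library, below 0 without allograft replicate 3 (-0.017) or isograft replicate 2 (-0.025). The other 6 ratios kept their direction, which for Tet1 to Tet2 is no further support, given how Tet1 passed the filter. Over all genes, rises ran from 3891 to 4134 and falls from 4004 to 4315 without 1 library.

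The libraries share replicate numbers 1, 2 and 3, but same-numbered libraries did not deviate together (correlations of -0.114, 0.019 and -0.0536 across genes), so the numbers were not taken as pairs. With the replicate block 4064 genes rose and 4152 fell, and no call of the 10 genes changed. Of the other named genes that were recomputed, Rrm2 lost its call (adjusted p = 0.0504 by edgeR), which left 1 fall among the replication genes, and the germinal centre markers had 1 fall in place of 2. Depth limits Tet1 most, at 4 to 6 counts in allograft libraries.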
